A study of Mus musculus with 2 samples.

Results

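Lung γδ T cells that carried Tcrg-V6 transcripts were examined in the library of cells sorted for lack of the Vγ1 chain from C57BL/6NCrl mice (WT). A Tcrg-V6 cell had at least 1 unique molecular identifier (UMI, a tag that marks 1 captured transcript) of Tcrg-V6 and 0 UMIs of Tcrg-V4 and Tcrg-V1. Barcodes entered only with more than 200 but fewer than 4000 genes detected and with mitochondrial UMIs below 10%. This gave 630 Tcrg-V6 cells, or 25.1% of the 2505 WT cells kept, of 9139 cells kept in both libraries. Within the same library they were compared with 424 Tcrg-V4 cells, which had at least 1 Tcrg-V4 UMI and 0 UMIs of Tcrg-V6 and Tcrg-V1.

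Mouse γδ T cells are divided by the variable gene of their γ chain. Cells with the Vγ6 chain, encoded by Tcrg-V6, arise in the fetal thymus, pair it with a nearly invariant δ chain encoded by Trdv4, and settle in the lung, the uterus, the skin and other barrier tissues. They are known as tissue-resident producers of interleukin-17 (IL-17), a cytokine that drives neutrophil responses, and they answer to IL-1 and IL-23. Cells with the Vγ4 chain include both IL-17 producers and cells with a type 1 program (γδ1), whose members make interferon-γ and cytotoxic proteins and recirculate more.

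The WT mice carried no targeted allele. The second library came from Vγ1-positive cells of mice whose strain label reads B6.Cg-Tcrgtm1lku(B6.Vg4-/-Vg6-/-), which lack the Vγ4 and Vγ6 chains (KO). All mice were uninfected and 5 to 7 weeks old. The labels give 1 library per group and no number of animals, and the study used mice of both sexes. There was thus no replicate of any comparison, no test was run, and each interval below is a 95% interval for counting error alone. Levels are UMIs added up over a set and scaled to 1000000 UMIs of that set (CPM), and ratios are on the log2 scale.

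The WT library held 2520 barcodes and 9173997 UMIs. Tcrg-V6 cells had a median of 3646 UMIs and 1618 genes, and Tcrg-V4 cells 3436 UMIs and 1548 genes. A UMI of Cd3d, Cd3e, Cd3g or Trdc, which mark γδ T cells here, was present in 617 of 630 Tcrg-V6 cells (97.9%). The 6 αβ T cell genes summed to 665 CPM in Tcrg-V6 cells and 1049 CPM in Tcrg-V4 cells. Trbc2 was read in 413 Tcrg-V6 cells at 514 CPM and Trbc1 in 147 at 117 CPM, while Trac was at 29.1 CPM, Cd8b1 at 4.91 CPM and Cd4 and Cd8a at 0 UMIs. Of the 5 B cell markers, 2 were at 0, and their summed level was 28.7 CPM against 74.8 CPM in Tcrg-V4 cells. The 7 myeloid markers summed to 291 CPM, of which Cst3 made 281 CPM, and to 490.0 CPM in Tcrg-V4 cells, of which Lyz2 made 275 CPM. On side 17, a range of a score of IL-17 lineage genes defined below, the order was the other way, with 297 against 164 CPM. Of 57 barcodes with B or myeloid markers and no UMI of Cd3d, Cd3e, Cd3g or Trdc, 7 were on side 17. At least 3 UMIs of these B or myeloid markers were present in 80 of 630 Tcrg-V6 and 28 of 424 Tcrg-V4 cells, and on side 17 in 75 of 582 and 8 of 178. Their part in the results was not tested, beyond the values given without such cells. The 2 libraries shared 23 barcode sequences, 6 of them in Tcrg-V6 cells. No doublet caller was run.

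The receptor genes that define the sets differ enough to be read apart. Tcrg-V6 (ENSMUSG00000076746) lies on chromosome 13 of GRCm38, from 19190356 to 19190929 on the plus strand, and Tcrg-V4 (ENSMUSG00000076745) 4849 bases before it, from 19184974 to 19185506. Their coding sequences in the GENCODE annotation shared 50.3% of aligned positions, and the longest run of letters they had in common was 14 bases. The 150 coding bases around that run are shown, with the run in capitals, and the first 150 coding bases of Trdv4, with the 7 bases that are its longest run shared with Trdv5 in capitals.
Tcrg-V6: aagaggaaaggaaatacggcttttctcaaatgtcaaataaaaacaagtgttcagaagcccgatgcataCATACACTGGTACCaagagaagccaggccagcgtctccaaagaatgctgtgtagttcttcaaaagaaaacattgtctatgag
Tcrg-V4: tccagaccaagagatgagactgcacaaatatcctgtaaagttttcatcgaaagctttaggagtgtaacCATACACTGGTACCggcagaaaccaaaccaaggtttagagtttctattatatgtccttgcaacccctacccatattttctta
Trdv4: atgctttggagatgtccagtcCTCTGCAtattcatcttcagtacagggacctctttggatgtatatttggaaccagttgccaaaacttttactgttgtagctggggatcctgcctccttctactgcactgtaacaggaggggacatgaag
Trdv4 (ENSMUSG00000076867) lies on chromosome 14 of GRCm38, from 54074905 to 54075515 on the plus strand. Its coding sequence shared 46.5% of aligned positions with that of Trdv5, the δ variable gene seen most in Tcrg-V4 cells.

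Tcrg-V6 UMIs chose the cells, so their number is given as a description. The 630 cells held 2365 Tcrg-V6 UMIs, with a median of 3 and a highest value of 19 in a cell. Just inside the rule were 128 cells with 1 Tcrg-V6 UMI, at 1296 CPM of Cd163l1 and 55.7 CPM of 5830411N06Rik, 2 genes described below, against 1494 and 7.83 CPM in the 198 cells with 5 or more. Just outside were 124 WT cells with a Tcrg-V6 UMI that also had a Tcrg-V4 or Tcrg-V1 UMI, and 1189 cells with none of the 3 genes, whose depth was lower at a median of 2866 UMIs. The Tcrg-V4 set rested on fewer UMIs, as 321 of its 424 cells had exactly 1 Tcrg-V4 UMI. In the KO library 0 of 6634 kept cells had a Tcrg-V6 UMI, which allows a share of up to 0.0452%. Among WT barcodes with B or myeloid markers and no UMI of Cd3d, Cd3e, Cd3g or Trdc, 0 of 57 had one, which allows up to 5.26% at a median of 2586 UMIs.

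The δ chain of the Tcrg-V6 cells was almost entirely Trdv4, which the rule did not use. A Trdv4 UMI was present in 595 of 630 Tcrg-V6 cells (94.4%) and in 25 of 424 Tcrg-V4 cells (5.9%). With each cell thinned to 2000 UMIs, which left out 39 Tcrg-V6 and 26 Tcrg-V4 cells, the shares were 94.9% (92.8 to 96.5) and 3.77% (2.12 to 6.14). Trdv4 made up 97.7% of the 6825 δ variable UMIs in Tcrg-V6 cells, and was the only δ variable gene in 548 of the 611 cells that had one. Of the others, Trdv2-2 had 85 UMIs in 39 cells, Trdv5 60 UMIs in 26 cells and the Trav15-dv6 genes together 13 UMIs in 9 cells. In Tcrg-V4 cells Trdv5 held 44.7% and Trdv2-2 41.8% of 1029 δ variable UMIs. The log2 ratio of Trdv4, Tcrg-V6 over Tcrg-V4 cells, was 6.34 (5.96 to 6.74).

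**Figure D1:**
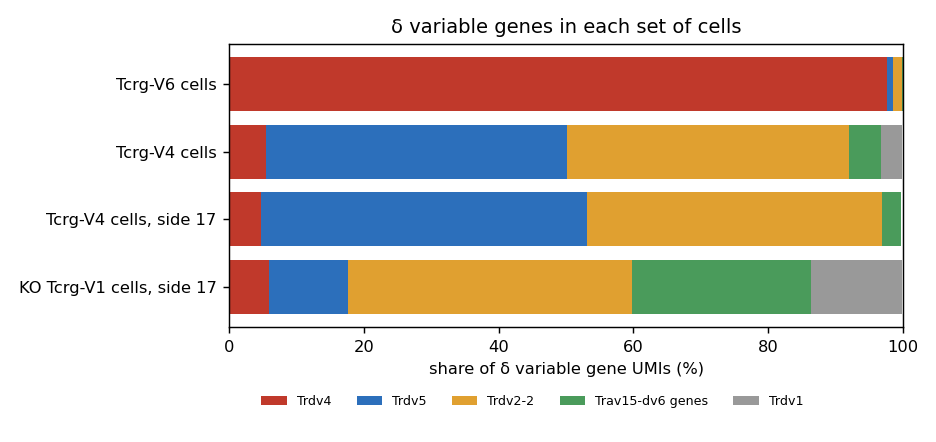
Share of δ variable gene UMIs (%, horizontal axis) taken by each δ variable gene in Tcrg-V6 cells, Tcrg-V4 cells, the Tcrg-V4 cells with the IL-17 lineage score described below (side 17) and the KO Tcrg-V1 cells with that score. Trdv4 fills 97.7% of the bar of the Tcrg-V6 cells and between 4.79% and 5.85% of the other bars.

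Detection of Trdv4 followed the number of Tcrg-V6 UMIs only at the lowest count. It was found in 82.8% of the 128 cells with 1 Tcrg-V6 UMI, in 96.6% of the 119 cells with 2 and in 98% of the 198 cells with 5 or more. Median depth differed along the same axis, from 2981 UMIs at 1 to 4092 UMIs at 5 or more, and its part in the difference was not tested. Of all 854 Trdv4-bearing WT cells, 69.7% were Tcrg-V6 cells and 712 had a Tcrg-V6 UMI under any rule.

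**Figure D2:**
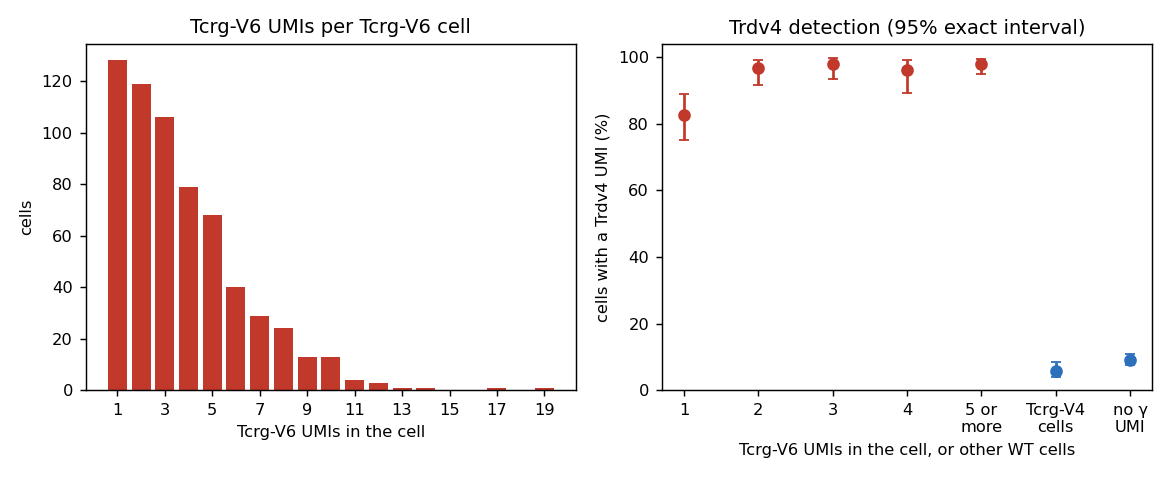
Left, number of Tcrg-V6 cells (vertical axis) by their Tcrg-V6 UMI count, which falls from 128 cells at 1 UMI to 1 cell at 19. Right, share of cells with a Trdv4 UMI (%, with 95% exact intervals) by Tcrg-V6 UMI count and, in blue, in Tcrg-V4 cells and in WT cells with no UMI of Tcrg-V6, Tcrg-V4 or Tcrg-V1, with 82.8% at 1 Tcrg-V6 UMI against 5.9% and 9.08% in the blue sets.

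Other γ chain genes moved with the set as well. A Tcrg-V5 UMI was present in 106 Tcrg-V6 cells and in 3 Tcrg-V4 cells, at 95.8 CPM (83.9 to 109) against 1.81 CPM (0.373 to 5.29). Tcrg-V5 lies 1348 bases beyond Tcrg-V6 in the same locus and encodes the chain of skin γδ T cells. All 106 of these cells also had a Trdv4 UMI. Tcrg-C1, the constant region that follows these variable genes, was at 257 CPM in Tcrg-V6 cells and 58.5 CPM in Tcrg-V4 cells, a log2 ratio of 2.13 (1.82 to 2.46), whereas Tcrg-C2 was at 24.2 and 36.8 CPM, a log2 ratio of -0.61 (-1.15 to -0.07).

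The Tcrg-V4 set was mixed, so it was used in full and then cut by a score of IL-17 lineage genes. A cell was placed on side 17 when it had more UMIs over Tmem176a, Tmem176b, Ccr2, Maf and Il23r, genes of IL-17-producing γδ T cells, than over Cd27, Klf2, Lef1, Ly6c2 and S1pr1, genes of γδ1 and recirculating cells. Of the Tcrg-V6 cells 582 (92.4%) were on side 17, against 178 Tcrg-V4 cells (42%). This is a range of a score and not a cell type: 14 side 17 Tcrg-V6 cells and 17 side 17 Tcrg-V4 cells lay within 1 UMI of the limit. The median over the second gene list was 0 UMIs in side 17 Tcrg-V6 cells and 1 UMI in side 17 Tcrg-V4 cells, and over the first list 10 and 6 UMIs. These 10 genes are given no result in the side 17 comparison, and their values over all cells were partly set by the same difference.

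Over all cells, 466 of 8442 genes with at least 30 UMIs over both sets were at least 2-fold higher in Tcrg-V6 cells (5.52%) and 445 at least 2-fold lower (5.27%). On side 17, 489 of 7459 genes were at least 2-fold higher (6.56%) and 191 lower (2.56%). The second pair of counts leaned on the unequal cell numbers, since a minimum on summed UMIs admits more genes that are high in the larger set. With a minimum on the mean CPM of both sets instead, chosen after seeing the data, they were 239 and 142. A gene with few UMIs in the 178 Tcrg-V4 cells could reach the minimum only by being high in Tcrg-V6 cells, so counts of higher genes on side 17 were partly fixed by it and are given as a description. The share called in each list of genes below can be read against these percentages. Because the cells of a set came from 1 library, a higher level can come from more cells with the transcript or more transcript per cell, and shares of cells are given where they tell these apart.

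**Figure D3:**
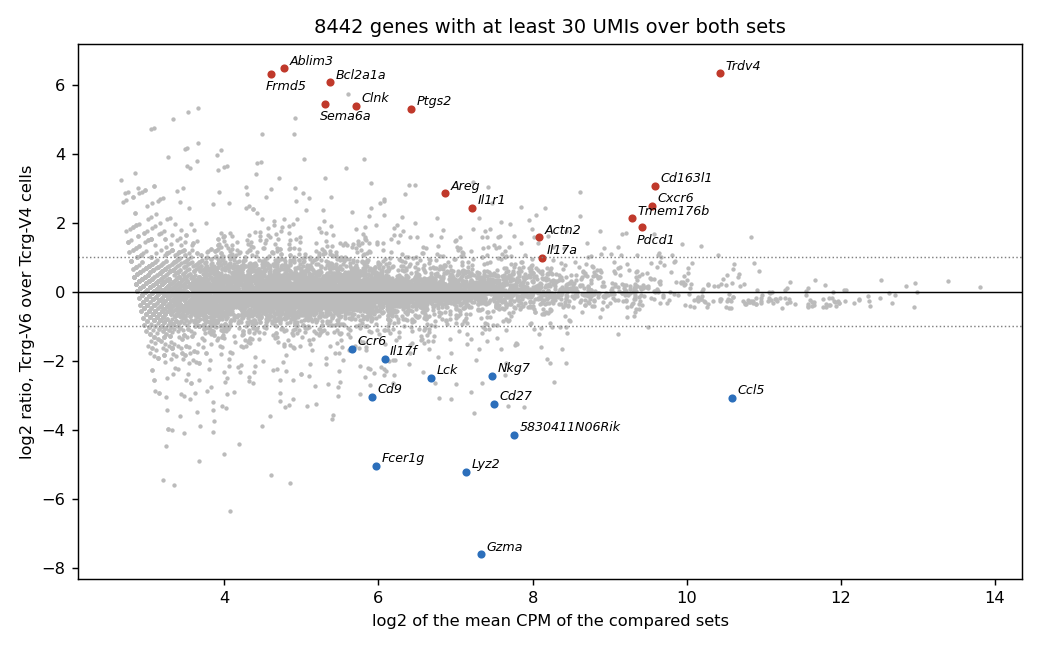
Log2 ratio of CPM, Tcrg-V6 over Tcrg-V4 cells (vertical axis), against the log2 of the mean CPM of both sets (horizontal axis) for each of 8442 genes, with the 2-fold limits dotted and named genes in red (higher) or blue (lower). Trdv4 at 6.34, Cd163l1 at 3.08 and Cxcr6 at 2.5 stand above most genes of similar level, and Ccl5 at -3.07 and Gzma at -7.62 below.

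The markers proposed for these cells separated them to different degrees. These markers were chosen with earlier results of these data known, so their direction was partly fixed in advance and is a description. All of Trdv4, Cd163l1, Pdcd1, Bcl2a1a and Actn2 were at least 2-fold higher than in all Tcrg-V4 cells, and all but Actn2 were so on side 17. Bcl2a1a had 1 UMI in side 17 Tcrg-V4 cells and reached the minimum there only through the Tcrg-V6 cells. Cd163l1 encodes SCART1, a scavenger receptor family protein of IL-17-producing γδ T cells. It was read in 580 of 630 Tcrg-V6 cells at 1382 CPM (1336 to 1429), and at 163 CPM (144 to 184) in Tcrg-V4 cells and 334 CPM (289 to 384) in those of side 17. The log2 ratios were 3.08 (2.91 to 3.27) and 2.12 (1.91 to 2.34). Pdcd1 encodes the inhibitory receptor PD-1. It was at 1078 CPM (1037 to 1119.7) in Tcrg-V6 cells, 295 CPM (269.5 to 322) in Tcrg-V4 cells and 92.7 CPM (69.9 to 121) in side 17 Tcrg-V4 cells, so the ratio was larger against side 17 cells, at 3.6 (3.21 to 4.01), than against all, at 1.87 (1.73 to 2.01). At 2000 UMIs per cell 71.9% of all Tcrg-V6 cells had a Pdcd1 UMI, and on side 17 73.2% of Tcrg-V6 and 12% of Tcrg-V4 cells. Actn2, which encodes the actin cross-linking protein α-actinin 2, was at 407 CPM against 136 CPM in all Tcrg-V4 cells, a log2 ratio of 1.58 (1.37 to 1.79). On side 17 it was within 2-fold, at 0.47 (0.24 to 0.7), and its level there was 309 CPM.

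**Figure D4:**
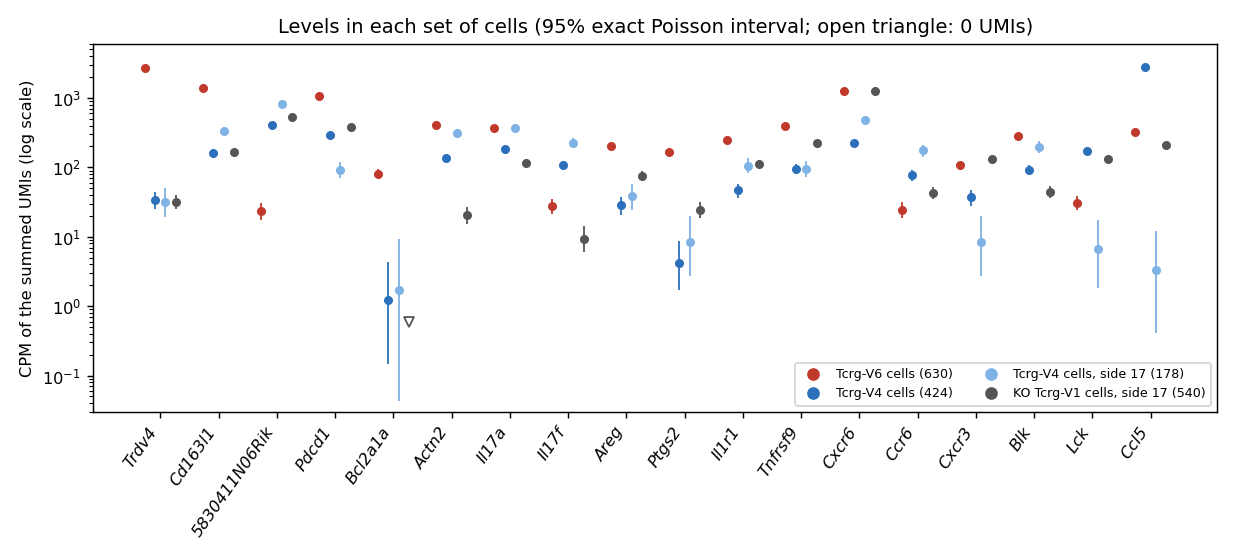
CPM of the summed UMIs (vertical log axis, 95% exact Poisson intervals) of 18 genes in Tcrg-V6 cells (red), all Tcrg-V4 cells (dark blue), side 17 Tcrg-V4 cells (light blue) and KO Tcrg-V1 cells of side 17 (grey), with an open triangle at 0 UMIs. Trdv4 and Bcl2a1a stand apart in red, at 2729 and 81.5 CPM, while 5830411N06Rik is lowest in red at 23.3 CPM and Il17f is lower in red, at 27.8 CPM, than in either set of Tcrg-V4 cells.

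Cd163l1 has a neighbour of the same family with the opposite pattern. 5830411N06Rik, which encodes SCART2, begins 16138 bases after the end of Cd163l1 on chromosome 7. It was read in 25 Tcrg-V6 cells at 23.3 CPM (17.7 to 30.2), and in 148 of 178 side 17 Tcrg-V4 cells at 824 CPM (753 to 901). The log2 ratios were -4.14 (-4.55 to -3.75) over all cells and -5.5 (-5.99 to -5.04) on side 17. Both genes were read in the same cell in 16 Tcrg-V6 cells and in 32 side 17 Tcrg-V4 cells, which is 64% and 21.6% of the cells with 5830411N06Rik in each set. The window from 250 bases before to 50 after each start is shown from RefSeq (GRCm38, plus strand), because these neighbours of one family differed in opposite directions. Capitals mark AGGTCA, a half-site of nuclear receptors, and TGCTGA, a half-site of MAF proteins, on either strand.
Cd163l1, chr7:140218017-140218316: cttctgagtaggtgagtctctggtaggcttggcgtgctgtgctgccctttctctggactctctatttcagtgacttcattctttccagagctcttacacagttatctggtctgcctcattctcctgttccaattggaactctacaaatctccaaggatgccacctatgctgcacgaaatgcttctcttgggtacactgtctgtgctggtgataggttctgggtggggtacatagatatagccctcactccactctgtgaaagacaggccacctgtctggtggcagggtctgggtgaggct
5830411N06Rik, chr7:140247051-140247350: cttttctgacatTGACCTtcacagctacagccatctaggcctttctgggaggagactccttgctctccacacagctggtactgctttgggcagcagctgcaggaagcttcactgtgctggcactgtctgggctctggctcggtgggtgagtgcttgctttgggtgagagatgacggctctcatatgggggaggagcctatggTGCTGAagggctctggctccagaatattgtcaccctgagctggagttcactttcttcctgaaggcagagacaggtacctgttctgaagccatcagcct
The Cd163l1 window held neither motif and the 5830411N06Rik window held 1 of each. Of 32851 windows of the same length in the table, 16.3% held AGGTCA and 19.5% held TGCTGA, so single matches are common, and they say nothing of binding. RefSeq lists 3 windows for 5830411N06Rik, of which the first is shown.

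Bcl2a1a, which encodes an A1 protein that protects cells from death, had the most one-sided level among the markers after Trdv4. It had 199 UMIs in 139 Tcrg-V6 cells and 2 UMIs in 2 Tcrg-V4 cells, 1 of them on side 17, with log2 ratios of 6.08 (4.2 to 9.13) and 5.61 (3.11 to 10.92). It is not particular to T cells, as 7 of 57 barcodes with B or myeloid markers had a UMI of it, but the KO Tcrg-V1 cells of side 17 had 0 UMIs in 540 cells. Its copies Bcl2a1b and Bcl2a1d were also higher, at log2 ratios of 2.2 (2.0 to 2.4) and 2.24 (2.0 to 2.5) over all cells and 1.23 (1.0 to 1.47) and 1.18 (0.9 to 1.46) on side 17, and were read in 463 and 387 Tcrg-V6 cells. With at least 2 UMIs of the variable gene the side 17 ratios of Bcl2a1b and Bcl2a1d were 0.57 and 0.82. The 3 genes lie on chromosome 9 and are near copies, so reads may have been split among them. The first 150 coding bases hold 6 of the 11 differences between Bcl2a1a and Bcl2a1b. Capitals mark the bases at which Bcl2a1a and Bcl2a1b differ from each other, and in Bcl2a1d those that differ from Bcl2a1a.
Bcl2a1a: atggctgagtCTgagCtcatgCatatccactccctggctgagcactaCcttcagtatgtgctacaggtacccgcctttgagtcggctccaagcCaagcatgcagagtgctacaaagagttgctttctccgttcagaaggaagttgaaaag
Bcl2a1b: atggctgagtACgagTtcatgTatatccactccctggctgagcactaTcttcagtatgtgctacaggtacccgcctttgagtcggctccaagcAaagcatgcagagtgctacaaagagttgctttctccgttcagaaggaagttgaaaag
Bcl2a1d: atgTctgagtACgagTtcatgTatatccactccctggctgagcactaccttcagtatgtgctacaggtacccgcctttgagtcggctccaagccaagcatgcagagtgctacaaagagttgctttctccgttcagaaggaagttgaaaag
Over 516 coding bases Bcl2a1a differed from Bcl2a1b at 11 positions and from Bcl2a1d at 7, an identity of 97.9% and 98.6%. The longest stretch without a difference was 217 and 314 bases, respectively, and a read that falls wholly inside such a stretch cannot be assigned. The level of Bcl2a1a alone is therefore uncertain.

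Among the genes chosen by size alone, 15 stood highest over all Tcrg-V4 cells. Sema6a, a semaphorin with roles in axon guidance, had 194 UMIs in 115 Tcrg-V6 cells and 0 UMIs in all 424 Tcrg-V4 cells. Gm36723 had 147 UMIs in 101 Tcrg-V6 cells and likewise 0. With the Tcrg-V4 cells set to 3 UMIs, their log2 ratios were 5.45 and 5.05, values that depend on that setting. Ablim3, an actin-binding LIM protein, was read in 102 Tcrg-V6 cells and 1 Tcrg-V4 cell, a log2 ratio of 6.48 (3.98 to 11.8). Frmd5, a FERM domain protein of cell adhesion, was read in 68 cells and 1 cell, at 6.32 (3.82 to 11.64). Clnk, an adaptor of immune receptor signalling, was read in 180 and 4 cells, at 5.4 (4.03 to 7.29). Ptgs2, the inducible cyclooxygenase of prostaglandin synthesis, had 410 UMIs in 116 Tcrg-V6 cells and 7 UMIs in 5 Tcrg-V4 cells, a log2 ratio of 5.31 (4.26 to 6.64). Vdr, the vitamin D receptor, was at 5.02 (2.48 to 10.36), from 48 UMIs and 1 UMI.

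The side 17 Tcrg-V4 cells are part of the same 424 cells, so the low counts that chose these genes carry over, and their side 17 values are a description. Log2 ratios there were 5.06 (2.55 to 10.37) for Ablim3, 5.0 (3.13 to 8.05) for Clnk, 4.43 (3.19 to 6.06) for Ptgs2 and 3.63 (1.08 to 8.97) for Vdr. Frmd5 and Sema6a had 0 UMIs in the 178 side 17 Tcrg-V4 cells, which puts their ratios at 3.36 and 4.06 or more. Tns4, a member of the tensin family, was read in 118 Tcrg-V6 cells and 3 Tcrg-V4 cells, all of side 17, with log2 ratios of 4.57 (3.18 to 6.47) and 3.17 (1.78 to 5.06). Map1b, a microtubule-associated protein, was at 4.57 (2.98 to 6.87) and 3.76 (1.88 to 6.83), and Fah, an enzyme of tyrosine breakdown, at 4.32 (2.41 to 7.4) and 3.89 (1.35 to 9.21). Of the remaining genes of the top 15, Hacd4, Zbtb7c, Cxcl9 and Hs6st2 rested on 39 to 55 UMIs in Tcrg-V6 cells. Cxcl9, a chemokine induced by interferon-γ, had 36 of its 39 UMIs in 10 of the 13 cells that carried it.

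The lowest genes over all Tcrg-V4 cells included cytotoxic genes and markers of other cell types. Gzma, a granzyme of cytotoxic cells, had 4 UMIs in 3 Tcrg-V6 cells and 532 UMIs in 30 Tcrg-V4 cells, a log2 ratio of -7.62 (-9.5 to -6.25). Klre1 had 0 and 32 UMIs and Fasl 4 and 45 UMIs. Fcer1g, an adaptor of Fc receptors, was at -5.04 (-6.19 to -4.09), and 65% of the thinned barcodes with B or myeloid markers carried it. Cd79a and Lyz2, which mark B cells and myeloid cells, were at -6.34 (-11.67 to -3.8) and -5.22 (-5.99 to -4.55), from 7 and 13 Tcrg-V4 cells with a UMI. Without cells that had 3 or more UMIs of the B or myeloid markers, the log2 ratio of Lyz2 was 0.055. Ms4a6c, Ifitm2 and Ifitm3 were also read in 50%, 60% and 62.5% of such barcodes. Under 12 alternatives, 1 of them without the marker-bearing cells, the ratio of Fcer1g ran from -6.76 to -3.09 and that of Ms4a6c from -5.42 to -2.99. The part of other cell types in these ratios was not tested further. On side 17 the lowest genes beside 5830411N06Rik were App at -4.42 (-5.97 to -3.16), Cd9 at -3.59 (-4.35 to -2.88), Fam169b at -3.37 (-4.51 to -2.33), Gm15340 at -3.14 (-4.45 to -1.96), Il17f at -2.89 (-3.33 to -2.46), Gm35065 at -2.81 (-3.87 to -1.82), Ccr9 at -2.79 (-3.51 to -2.09), Ccr6 at -2.76 (-3.25 to -2.29) and Plxdc2 at -2.7 (-3.31 to -2.11).

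The IL-17 cytokines parted between the sets. Il17a was read in 229 Tcrg-V6 cells at 368 CPM (345 to 393), in 72 Tcrg-V4 cells at 186 CPM (166 to 208) and in 55 side 17 Tcrg-V4 cells at 371 CPM (323 to 423). After thinning 29.8% (26.1 to 33.6) of all Tcrg-V6 cells had an Il17a UMI. On side 17 the shares were 31% (27.1 to 35.0) of Tcrg-V6 cells and 24.7% (18.3 to 32) of Tcrg-V4 cells. Of 40 thinned barcodes with B or myeloid markers none had an Il17a UMI, which allows up to 7.5%. The log2 ratio was 0.98 (0.79 to 1.17) over all cells and 0.07 (-0.14 to 0.29) on side 17, an interval that includes 0. Under 12 alternatives the Il17a ratio ran from 0.11 to 1.98 over all cells and from -0.97 to 1.14 on side 17. Il17f, its close relative and partner in the IL-17A and IL-17F heterodimer, went the other way. It was read in 45 Tcrg-V6 cells at 27.8 CPM (21.6 to 35.3) and in 53 side 17 Tcrg-V4 cells at 224 CPM (188 to 266), with log2 ratios of -1.95 (-2.37 to -1.54) and -2.89 (-3.33 to -2.46). Cut to cells with Xist and no Y-linked UMI, the Il17f ratio was -0.73 over all cells, within 2-fold, and -1.69 on side 17, and in cells with a Y-linked UMI it was -3.89 and -4.68. Of the cells with Il17a, 12.2% of Tcrg-V6 and 41.8% of side 17 Tcrg-V4 cells also had Il17f.

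Areg was the cytokine list's other clear difference. It encodes amphiregulin, a growth factor of tissue repair. It had 501 UMIs in 90 Tcrg-V6 cells, at 205 CPM (188 to 224), and 23 UMIs in 5 side 17 Tcrg-V4 cells, at 38.8 CPM (24.6 to 58.2), with log2 ratios of 2.85 (2.42 to 3.32) over all cells and 2.47 (1.87 to 3.14) on side 17. The 10 cells with most Areg held 49.5% of its UMIs in Tcrg-V6 cells, and 46 of the 90 cells also had Il17a. Tnf, Ltb and Tnfsf11 were at least 2-fold higher over all cells, at 1.45, 1.08 and 1.31, and within 2-fold on side 17, at 0.36, 0.7 and 0.39. Il22 rested on 11 Tcrg-V6 cells, of which 1 held 34 of 70 UMIs, and on 3 Tcrg-V4 cells. Il21, Il4 and Il13 were at 0 UMIs in both sets and Csf2 at 7 and 1. Of 8 cytokine genes with enough UMIs, 5 were at least 2-fold higher and 1 lower over all cells, and 1 higher and 1 lower on side 17, with medians of 1.06 and 0.35. The median of all genes was -0.02 over all cells and 0.05 on side 17, so it hardly moved these values.

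Among receptors for the cytokines that act on IL-17 lineage cells, Il1r1 and Il12rb1 were higher in both comparisons. Il1r1, the signalling receptor of IL-1, was at 251 CPM (231 to 272) in Tcrg-V6 cells, 46.5 CPM (36.7 to 58.1) in Tcrg-V4 cells and 106 CPM (81.6 to 136) in those of side 17, with log2 ratios of 2.43 (2.09 to 2.79) and 1.34 (0.96 to 1.74), the latter being 0.87 with at least 2 UMIs of the variable gene. Its partner Il1rap was within 2-fold, at -0.2 (-1.0 to 0.61) over all cells. Il12rb1, the chain shared by the IL-12 and IL-23 receptors, was read in 75 Tcrg-V6 cells and 7 Tcrg-V4 cells, 2 of them on side 17, with log2 ratios of 3.04 (1.94 to 4.4) and 3.44 (1.54 to 6.51). Il12rb2, the chain particular to the IL-12 receptor, was at -2.48 (-3.01 to -1.98) over all cells. On side 17 it rested on 3 Tcrg-V4 UMIs and changed direction with the settings. Il23r, one of the sorting genes, was at 445 CPM against 144 CPM, a log2 ratio of 1.63 (1.43 to 1.84) over all cells. Il2ra, the IL-2 receptor α chain, was at 1.83 (1.56 to 2.12) over all cells and 0.65 (0.35 to 0.95) on side 17. Il18r1, Il7r, Il2rb and Il2rg were within 2-fold in both, between -0.39 for Il7r on side 17 and 0.81 for Il18r1 over all cells. Of 19 receptor genes 4 were higher and 2 lower over all cells, and of 17 on side 17, 3 were higher and 0 lower. Those 3 were Il1r1, Il12rb1 and Il12rb2. The last 2 had few UMIs in side 17 Tcrg-V4 cells and reached the minimum only through the Tcrg-V6 cells, so the count is a description. In cells with Xist and no Y-linked UMI the side 17 ratio of Il12rb1 was a bound of 0.86.

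Regulators of the innate-like T cell program were among the higher genes. Zbtb16, which encodes PLZF, was at 309.9 CPM (288 to 333), 76 CPM (63.3 to 90.5) and 162 CPM (131 to 198) in Tcrg-V6, Tcrg-V4 and side 17 Tcrg-V4 cells, with log2 ratios of 2.03 (1.75 to 2.31) and 1.02 (0.71 to 1.35). Rora, a nuclear receptor, was at 1.69 (1.54 to 1.84) and 1.06 (0.87 to 1.25). Sox13, a factor of early IL-17 lineage choice in the thymus, was at 1.91 (1.22 to 2.68) and 1.04 (0.23 to 1.96), the latter changing sign in cells with Xist and no Y-linked UMI, and Bhlhe40 at 1.6 (1.35 to 1.86) and 1.14 (0.8 to 1.49). Id2 was at 1.29 over all cells and 0.9 on side 17, while Id3, its opposite in many lymphocytes, was at -2.92 (-3.82 to -2.11). Maf, a sorting gene, was within 2-fold at 0.83 (0.6 to 1.07) over all cells. Sox4 was at -2.3 (-3.04 to -1.62) over all cells, and Gata3 was within 2-fold at -0.71 (-1.15 to -0.27). In all, 7 of 19 regulators were higher and 3 lower over all cells, with a median of 0.59, and 5 of 15 higher and 0 lower on side 17, with a median of 0.74.

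Genes of stem-like and recirculating T cells were lower in Tcrg-V6 cells, of which 3 (Klf2, Lef1 and S1pr1) were sorting genes. Over all cells 9 of 10 were at least 2-fold lower, with a median of -1.54. Tcf7, which encodes TCF-1, was at 62.6 CPM (53.1 to 73.4), 246 CPM (222 to 271) and 111 CPM (86.1 to 142) in Tcrg-V6, Tcrg-V4 and side 17 Tcrg-V4 cells, with log2 ratios of -1.97 (-2.25 to -1.7) and -1.22 (-1.68 to -0.76), the latter being -0.75 with at least 2 UMIs of the variable gene. Ccr9, a homing receptor of thymic emigrants and gut, was at -2.3 (-2.88 to -1.76) and -2.79 (-3.51 to -2.09). Ccr7, the lymph node homing receptor, was at -2.06 (-2.31 to -1.82) over all cells and -0.93 (-1.42 to -0.44) on side 17. Bach2, Satb1 and Foxp1 were at -1.21, -1.03 and -1.01 over all cells, and between -0.9 and -0.37 on side 17. The exception was Ccr4, at 0.73 (0.26 to 1.21). On side 17, 2 of 7 were at least 2-fold lower.

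Proximal receptor signalling genes differed by kinase. Blk, a Src-family kinase of B cells and IL-17-producing γδ T cells, was read in 356 Tcrg-V6 cells at 287 CPM (266 to 309) and in 105 Tcrg-V4 cells at 92.9 CPM (78.8 to 109), with log2 ratios of 1.63 (1.37 to 1.89) and, on side 17, 0.63 (0.35 to 0.93). Lck, the main Src-family kinase of T cells, was at 31.1 CPM against 174 CPM, a log2 ratio of -2.49 (-2.87 to -2.12) over all cells. On side 17 only 3 Tcrg-V4 cells had a Lck UMI, at 6.74 CPM, and the ratio was 1.33 (-0.15 to 3.27), an interval that includes 0. Fyn was within 2-fold in both. Zap70 and Lat were at 1.1 (0.87 to 1.33) and 1.03 (0.88 to 1.19) over all cells and within 2-fold on side 17. Prkcq, protein kinase C-θ, was lower in both, at -1.3 (-1.66 to -0.95) and -1.27 (-1.78 to -0.75), whereas Prkch was lower over all cells, at -2.4 (-2.66 to -2.14), and at -0.67 (-1.24 to -0.06) on side 17. Of the CD3 chains Cd3g was at 0.69 (0.59 to 0.78), Cd3e at 0.54 (0.45 to 0.63) and Cd3d at 0.14 (0.03 to 0.25). In this list 3 of 20 genes were higher and 5 lower over all cells, and 3 of 18 higher and 1 lower on side 17. The side 17 genes counted as higher were Lck, Cd5 and Ptpn6. Lck had 4 UMIs in side 17 Tcrg-V4 cells and reached the minimum only through the Tcrg-V6 cells, so that count is a description.

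Type 1 and cytotoxic genes were mostly lower in Tcrg-V6 cells than in all Tcrg-V4 cells, 9 of 13 by at least 2-fold and 1 higher, with a median of -2.41. On side 17 only 6 reached the minimum, and of these Tbx21, Nkg7, Ccl5, Cxcr3 and Gzmb had 1 to 9 UMIs in Tcrg-V4 cells, which could not have passed without the Tcrg-V6 cells. The cut itself removes Tcrg-V4 cells high in Ly6c2 and Cd27, so no count or median of this list is given there. Ccl5, a chemokine of memory and cytotoxic T cells, had 803 UMIs in 61 Tcrg-V6 cells, 4564 UMIs in 135 Tcrg-V4 cells and 2 UMIs in 2 side 17 Tcrg-V4 cells, with log2 ratios of -3.07 (-3.18 to -2.96) and 5.4 (3.54 to 8.45). Nkg7, a protein of cytotoxic granules, was at -2.43 (-2.71 to -2.15) over all cells and at 4.03 (1.5 to 9.36) on side 17, where the Tcrg-V4 cells had 1 UMI. Cxcr3, the receptor of interferon-induced chemokines, was higher in both: it was read in 152 Tcrg-V6 cells at 107 CPM (94.3 to 121), in 42 Tcrg-V4 cells at 36.8 CPM (28.2 to 47.3) and in 4 side 17 Tcrg-V4 cells at 8.43 CPM (2.74 to 19.7), with ratios of 1.54 (1.13 to 1.96) and 3.68 (2.43 to 5.31). Gzmb was at 0.82 (0.44 to 1.2) over all cells and 2.4 (1.44 to 3.55) on side 17, and was read in 98 Tcrg-V6 cells in all and 8 side 17 Tcrg-V4 cells. Tbx21, which encodes T-bet, was read in 39 Tcrg-V6 cells, with a ratio of 0.01 (-0.63 to 0.67) over all cells. Eomes and Xcl1 were near 0 in Tcrg-V6 cells, with 2 and 7 UMIs.

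**Figure D5:**
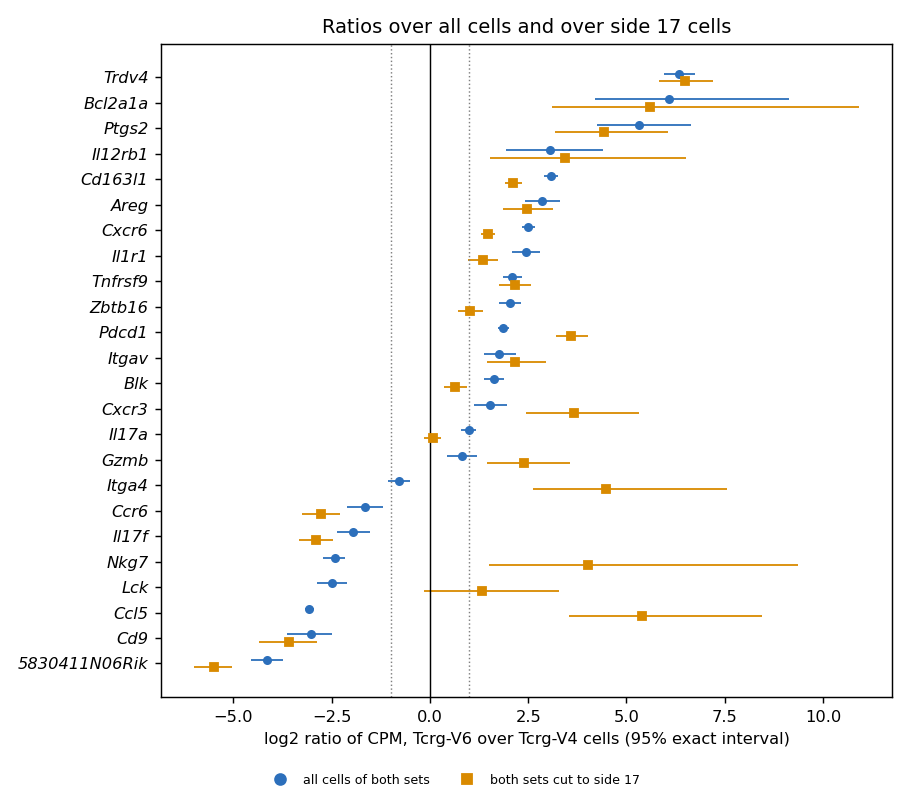
Log2 ratio of CPM, Tcrg-V6 over Tcrg-V4 cells (horizontal axis, 95% exact intervals), for 24 genes over all cells (blue circles) and with both sets cut to side 17 (orange squares), with dotted lines at 2-fold. Il17f, Ccr6, Cd9 and 5830411N06Rik are to the left in both, whereas Ccl5 is at -3.07 and 5.4 and Nkg7 at -2.43 and 4.03, the side 17 values resting on 2 UMIs and 1 UMI in Tcrg-V4 cells.

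Costimulatory and inhibitory receptors differed gene by gene. Tnfrsf9, which encodes 4-1BB, was higher in both comparisons, at 401 CPM (376 to 427) against 94.1 CPM (79.9 to 110.1) and 96.1 CPM (72.8 to 124), with log2 ratios of 2.09 (1.85 to 2.34) and 2.15 (1.77 to 2.56). Icos and Tnfrsf25 were at 1.69 (1.55 to 1.84) and 1.48 (1.18 to 1.79) over all cells and within 2-fold on side 17. Cd28, Cd2 and Tnfrsf18 were lower over all cells, at -2.68, -1.39 and -1.47, and Cd27, a sorting gene, was at -3.24. Tigit was lower in both, at -2.09 (-2.49 to -1.72) and -1.25 (-1.85 to -0.64), but on side 17 not in cells with a Y-linked UMI. Ctla4 was read in 72 Tcrg-V6 and 37 Tcrg-V4 cells, 5 of them on side 17, at 0.08 (-0.38 to 0.56) and 1.38 (0.4 to 2.56). Lag3, Havcr2 and Btla had at most 18 UMIs in Tcrg-V6 cells. Over all cells 3 of 8 costimulatory genes were higher and 4 lower, and 2 of 8 inhibitory genes higher and 2 lower. On side 17 the counts were 1 higher and none lower of 6, and 3 higher and 1 lower of 7.

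Homing receptors and integrins set the sets apart in both directions. Cxcr6, a receptor of tissue-resident lymphocytes, was read in 535 Tcrg-V6 cells at 1269 CPM (1225 to 1315), with 224 CPM (202 to 248) in Tcrg-V4 cells and 479 CPM (425 to 538) on side 17, and ratios of 2.5 (2.35 to 2.66) and 1.48 (1.31 to 1.67), the latter being 0.79 in cells with Xist and no Y-linked UMI. Ccr6, the receptor for CCL20, was lower, at 24.6 CPM (18.7 to 31.6) against 76.6 CPM (63.9 to 91.2) and 175 CPM (143 to 212), with ratios of -1.64 (-2.11 to -1.19) and -2.76 (-3.25 to -2.29). Ccr2, a sorting gene, was at 1.96 (1.7 to 2.23) over all cells. Itgae, which encodes the CD103 chain of an integrin that binds E-cadherin, was lower in both, at -1.19 (-1.69 to -0.71) and -1.92 (-2.51 to -1.33). The chains of fibronectin-binding and vitronectin-binding integrins went the other way: Itgav was at 1.77 (1.36 to 2.19) and 2.16 (1.45 to 2.96), and Itgb1 at 1.17 (0.91 to 1.45) and 1.39 (0.96 to 1.86). In cells with Xist and no Y-linked UMI, however, Itgb1 was at 0.14 over all cells and 0.17 on side 17. Itga4 was within 2-fold over all cells, at -0.79 (-1.07 to -0.51), and at 4.49 (2.61 to 7.55) on side 17, where 2 Tcrg-V4 cells carried it against 109 Tcrg-V6 cells in all. Gpr183 and Rgs1 were at 1.28 and 1.08 over all cells and within 2-fold on side 17. Of 15 genes 6 were higher and 2 lower over all cells, and of 14 on side 17, 4 were higher and 2 lower.

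Among surface genes of IL-17 lineage cells, Cd9 fell on the side of 5830411N06Rik. This tetraspanin was read in 24 Tcrg-V6 cells at 13.1 CPM (8.96 to 18.5) and in 118 Tcrg-V4 cells at 107 CPM (92.2 to 124), with ratios of -3.04 (-3.63 to -2.49) and -3.59 (-4.35 to -2.88). Kcnk1, a potassium channel, Ramp1, a subunit of the calcitonin gene-related peptide receptor, Aqp3, a water and glycerol channel, and Cd44 were at 1.59, 1.59, 1.78 and 1.63 over all cells. On side 17 Aqp3 was at 1.01 and the other 3 were within 2-fold. Ly6a was lower on side 17, at -1.06 (-1.27 to -0.84), and not over all cells, at -0.02 (-0.21 to 0.18). Cd93, named by its size on side 17, was read there in 108 Tcrg-V6 cells and 2 Tcrg-V4 cells, at 4.5 (2.63 to 7.56). It reached the minimum there only through the Tcrg-V6 cells, so that value is a description. Over all cells Cd93 was at 2.75 (2.04 to 3.53), with 13 Tcrg-V4 cells carrying it.

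Of the other survival genes, Bcl2l1 was higher over all cells. Bcl2l1, which encodes BCL-XL, was read in 82 Tcrg-V6 cells and 10 Tcrg-V4 cells, with ratios of 2.75 (1.81 to 3.85) and, on side 17, 3.69 (1.8 to 6.76). It had 2 UMIs in side 17 Tcrg-V4 cells and reached the minimum there only through the Tcrg-V6 cells, so that value is a description. In cells with Xist and no Y-linked UMI the side 17 ratio was a bound of 0.37. Bcl2l11, the pro-death BIM, was lower at -1.33 (-1.56 to -1.11) over all cells and at -0.75 (-1.1 to -0.4) on side 17. Bcl2 and Mcl1 were within 2-fold in both, at -0.68 and -0.41 over all cells. Of 12 genes 4 were higher and 1 lower over all cells, and of 11 on side 17, 5 were higher and 0 lower. Those 5 include Bcl2l1 and Bcl2a1a, with 2 UMIs and 1 UMI in side 17 Tcrg-V4 cells. In the adhesion list Actn1 was at -2.97 (-3.58 to -2.4) over all cells, opposite to Actn2, and Lmna was at 1.0 (0.85 to 1.16) over all cells and 0.11 (-0.07 to 0.29) on side 17.

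S100 and related genes of effector T cells were higher over all cells, 7 of 10 by at least 2-fold, with S100a4 at 1.67 (1.54 to 1.8), S100a6 at 1.6 (1.52 to 1.69) and Lgals1 at 1.39 (1.28 to 1.5). On side 17 3 of 10 were, namely Anxa1, Anxa2 and Vim, the last at 1.17 (0.96 to 1.38), and the other 7 lay between 0.45 and 0.91. Glycolysis genes were within 2-fold for 14 of 15 over all cells and 13 of 15 on side 17, with Gapdh at -0.02 (-0.08 to 0.04) and -0.15 (-0.24 to -0.07). Lipid genes were within 2-fold for 10 of 12 over all cells and all 9 on side 17. The cell cycle list lay within 2-fold for all 6 genes with enough UMIs in both, and Mki67 was read in 10 Tcrg-V6 cells. Immediate-early and heat-shock genes, which rise when tissue is digested, were within 2-fold for all 15 over all cells. On side 17 Fos was lower, at -1.19 (-1.29 to -1.09), or -0.46 in cells with Xist and no Y-linked UMI, and the list's sum was 12208 CPM in Tcrg-V6 cells against 15815 CPM in Tcrg-V4 cells. Its part in the other side 17 differences was not tested. The sexes were not matched either: of side 17 cells, Y-linked UMIs were read in 147 of 582 Tcrg-V6 and 61 of 178 Tcrg-V4 cells, and Xist without them in 215 and 38. In the latter the side 17 ratios of Rora, Vim and Prkcq were also within 2-fold, at 0.75, 0.65 and -0.77, and in cells with a Y-linked UMI those of Bhlhe40 and Ly6a, at 0.62 and -0.51.

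UMIs of Trdv4, Cd163l1 and Pdcd1 were less concentrated in a few Tcrg-V6 cells than those of cytokines and chemokines. Each of the first 3 had at most 6.5% of its UMIs in the 10 cells that held most. This does not show that the cells were alike. Trdv4 was at 1240 CPM in the 48 Tcrg-V6 cells off side 17 and at 2859 CPM in the 582 on it. For Il17a the 10 cells with most UMIs held 23.8%, for Ptgs2 33.4%, for Areg 49.5% and for Ccl5 62.5%. A set of 36 Tcrg-V6 cells had 5 or more Ccl5 UMIs. Next to the 569 cells with none, they had more Ly6c2, at 457 against 6.53 CPM, a log2 ratio of 6.13 (5.31 to 7.06), and more Klrd1, at 4.23 (3.35 to 5.15), Nkg7, at 3.79 (3.28 to 4.31), Cd27, at 3.26 (2.57 to 3.94), and Lck, at 3.15 (2.42 to 3.87). They had less Il23r, at -1.86 (-2.48 to -1.3), and Pdcd1, at -1.02 (-1.31 to -0.75). Of these cells 32 had a Trdv4 UMI and 17 were on side 17, and their median depth was 4731 UMIs, against 3635 UMIs in the cells with none. B or myeloid marker UMIs, at least 3 in a cell, were present in 10 of the 36 cells and in 69 of the 569. The part of depth and of other cell types in these ratios was not tested.

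The few Tcrg-V6 cells without Trdv4 were of 2 kinds. In 16 cells another δ variable gene was read. These had 179.8 CPM of Cd163l1 and 216 CPM of 5830411N06Rik, against 1403 and 16.6 CPM in the 595 cells with Trdv4, and 2 of the 16 were on side 17. The log2 ratio of the Trdv4-bearing cells over them was 2.96 (2.08 to 4.03) for Cd163l1, -3.7 (-4.66 to -2.63) for 5830411N06Rik, 4.04 (1.56 to 9.35) for Blk, -3.93 (-4.65 to -3.15) for Cd27 and -3.43 (-3.96 to -2.87) for Ccr7. In the other 19 cells no δ variable gene was read. Their median depth was 1346 UMIs, with 11 of 19 below 2000 UMIs, and 10 of 19 had a UMI of Cd3d, Cd3e, Cd3g or Trdc. They had 1773 CPM of Cd163l1, with 14 of 19 on side 17.

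In the KO library the side 17 cells with Tcrg-V1 and no Tcrg-V4 or Tcrg-V6 UMI, 540 in number, give the levels of the study's other group. The sort, the genotype and the library changed at once here and cannot be told apart, and Y-linked UMIs were read in none of these 540 cells. Trdv4 was at 31.6 CPM there, Cd163l1 at 166 and 5830411N06Rik at 529 CPM. Il17a was at 116 CPM (103 to 130.0) and Il17f at 9.44 CPM (5.98 to 14.2), and the log2 ratio of side 17 Tcrg-V6 cells over them was 1.75 (1.56 to 1.95) and 1.68 (0.98 to 2.43). Actn2 and Blk, high in side 17 cells of both WT sets, were at 20.5 and 43.9 CPM, with ratios of 4.38 (3.97 to 4.82) and 2.8 (2.51 to 3.11). By contrast Cxcr6 was at 1263 CPM (1219 to 1308), a ratio of 0.09 (0.01 to 0.16), and Zbtb16 at 455 CPM (429 to 483), a ratio of -0.47 (-0.6 to -0.33). Cd40lg, which encodes CD40 ligand, was at 108 CPM in the KO cells and 2.05 CPM in Tcrg-V6 cells.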

How the data were processed

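The authors sorted γδ T cells from lungs and made 1 droplet single-cell library per group, which the labels call a 3′ kit and the study's methods a V(D)J kit. Per the file headers the deposited counts are whole UMI counts per gene and barcode from Cell Ranger 7.0.0 (7.0 in the submitters' processing notes, another version in the methods), on mm10. They were not normalised, and the depth is 9173997 UMIs in the WT and 26436826 UMIs in the KO library.

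The limits of the study's cell filter were applied here. They left 2505 WT and 6634 KO cells, more in each library than the study reports, so its exact set of cells was not reproduced. The cause of this difference was not tested. Cells were set apart by the Tcrg-V6, Tcrg-V4 and Tcrg-V1 UMIs, and UMIs were summed per set, since cells of 1 library are not replicates. Each sum has an exact Poisson interval, each ratio an exact conditional binomial interval and each share a Clopper-Pearson interval, all at 95% and for counting error alone. For a share of 0 the limit given is 3 cells of the total. Genes needed 30 UMIs over both sets, and a set at 0 UMIs was given 3 UMIs. To compare shares, cells were thinned to 2000 UMIs. Called means at least 2-fold. Genes named were those of the gene lists and the 15 highest and 15 lowest ratios over all cells and the 10 highest and 10 lowest on side 17, receptor and immunoglobulin genes left out. The cells and the gene lists were chosen with earlier results of these data known. The ratio code was tested on simulated data. Python 3.11.15, numpy 2.4.6, scipy 1.17.1 and pandas 2.3.3 were used. Alternatives covered the UMI minimum for the variable gene, cell and gene filters, weighting, thinning, other cell types, deep cells, stress genes and sex-linked transcripts. Some items are not reported here.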

Additional observations from a re-analysis of the deposited data

Results flagged for a closer look

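Cells outside the compared sets also carried the receptor transcripts. There were 124 WT cells with a Tcrg-V6 UMI that were left out for a Tcrg-V4 or Tcrg-V1 UMI, against 0 of 6634 cells in the KO library with Tcrg-V6. Of these, 117 had a Trdv4 UMI, which is 94.4%, and 105 were on side 17. They had 969 CPM of Cd163l1 and 518 CPM of Il17a, against 1382 and 368 CPM in the 630 Tcrg-V6 cells and 163 and 186 CPM in the Tcrg-V4 cells. Cd27 was at 96.9 CPM against 34.8 CPM in Tcrg-V6 cells, and their median depth was 4184 UMIs.

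There were also 108 WT cells with a Trdv4 UMI and no UMI of Tcrg-V6, Tcrg-V4 or Tcrg-V1, at a median of 3141 UMIs. They had 946 CPM of Cd163l1, 349 CPM of Il17a and 147 CPM of 5830411N06Rik, and 72 were on side 17. Trdv4 was at 1481 CPM in them and at 33.8 CPM in Tcrg-V4 cells. No cause was tested for either set.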

How the results depend on the processing

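The genes counted here were past 2-fold in these same cells, and the alternatives reused those cells. Agreement in direction was therefore partly fixed in advance and is given as a description. A bound that gave no direction, with a set at 0 UMIs of the gene, was left out. Over all cells, 112 named genes were past 2-fold, and 1338 of their 1340 values under 12 alternatives kept the direction, 1299 of them past 2-fold. On side 17 the numbers were 66 genes, 780 of 784 and 723. Of the other 41 and 61 values, 2 and 19 were bounds, with a set at 0 UMIs of the gene, that do not show whether the difference reached 2-fold. The rest were within 2-fold or reversed, many of them in cells cut by sex-linked transcripts. Only some of them are given beside their genes above. With at least 2 UMIs of the variable gene, others were Zbtb16 at 0.86 and Rora at 0.82 on side 17, and Itgae at -0.78 over all cells. On side 17 Aqp3 was at 0.83 without B or myeloid marker cells, and Bcl2a1d at 0.6 in cells with Xist and no Y-linked UMI. The cause of each change below was not tested, except that a stricter gene minimum leaves fewer genes. With a minimum of 100 UMIs the counts of genes 2-fold higher and lower were 251 and 191 over all cells and 178 and 66 on side 17. Where 10% or more of the cells in 1 of the sets had to carry the gene, they were 259, 202, 235 and 113. With a mean CPM of at least 20, chosen after seeing the data, they were 265 and 229 over all cells and 239 higher on side 17. In cells with a Y-linked UMI 264 genes were lower over all cells. The share of Tcrg-V6 cells with a Trdv4 UMI was 96.7% with at least 2 UMIs of the variable gene. The share with Il17a was 36.3% without thinning, 24.8% without the cells highest in stress genes and 35.3% in cells with Xist and no Y-linked UMI. The log2 ratio of Lyz2 over all cells was 0.055 without B or myeloid marker cells, and that of Anxa1 was -0.28 in cells with a Y-linked UMI. On side 17 Tigit was at 0.87 in those cells, Sox13 at -0.23 in cells with Xist and no Y-linked UMI, and Il12rb2 at -0.43 with 2 UMIs of the variable gene and -0.78 without cells over 2 times the median depth. No paired analysis was possible because there was 1 library per group, and for the same reason no replicate could be left out.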

Other observations

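Some transcripts varied between Tcrg-V6 cells more than most, and these were chosen after their values were seen. At 2000 UMIs per cell, the variance over the mean had a median of 1.12 over the 1943 genes with at least 100 UMIs. Calca, which encodes calcitonin gene-related peptide, stood at 6.37. It was read in 151 Tcrg-V6 cells at 307 CPM, in 20 Tcrg-V4 cells at 37.4 CPM and in 14 side 17 Tcrg-V4 cells at 84.3 CPM. Serpinb1a, a neutrophil elastase inhibitor, stood at 3.93 and was read in 393 Tcrg-V6 cells at 692 CPM, against 93.5 CPM in Tcrg-V4 cells and 175 CPM on side 17. Cxcl10, a chemokine induced by interferons, stood at 6.86 and was read in 55 Tcrg-V6 cells. Cd74, the invariant chain of antigen presentation, stood at 7.91 and was read in 82 Tcrg-V6 cells at 138 CPM, against 416 CPM in Tcrg-V4 cells.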
